A study of Mus musculus with 6 samples.

Results

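Expression of autophagy and lysosome genes was examined in RNA-seq libraries of muscle stem cells (MuSCs), which repair skeletal muscle and were analysed directly after isolation from control and Taf4asKO mice. The members are 47 genes listed by symbol, covering initiation, membrane growth, conjugation, cargo receptors, the transcription factors TFEB, TFE3 and MITF, and lysosomal proteins. All 47 were found among the 22081 genes of the expression table, and all 47 were among the 18562 genes with a mean of at least 5 normalized counts that entered the test. Each group held 3 libraries, made from 90000 sorted cells and 10 ng of total RNA per library. Taf4asKO mice were adult C57BL/6 animals that carried Pax7CreERT, a tamoxifen-inducible Cre driven by the Pax7 locus, and floxed Taf4a alleles, and received tamoxifen to delete exons 11 and 12. Control littermates also carried floxed Taf4a, with or without the Cre allele, and whether those of these libraries received tamoxifen is not stated in the sources used here. The labels title the control libraries WT. The cells were sorted as negative for SCA1, CD45 and CD31 and positive for integrin alpha 7 or a Pax7 reporter. The study reports that sorted cells, when reanalysed, were not fully pure. The sources do not say whether the cells of a library came from 1 animal, so p-values measure the spread between these libraries.

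Autophagy delivers cytoplasm and organelles to the lysosome. The ULK1 kinase complex starts the process, a lipid kinase complex built on VPS34 and Beclin 1 marks the nascent membrane, ATG2, ATG9 and WIPI proteins extend it, and a ubiquitin-like cascade couples ATG8 proteins such as LC3 to it. Cargo receptors tie substrates to ATG8 proteins, and lysosomal hydrolases degrade them after fusion. TFEB, TFE3 and MITF are related factors that can bind promoters of many of these genes. In MuSCs, basal autophagy is known to maintain the quiescent state.

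Normalized counts are reads divided by a scaling factor per library. Total normalized counts lay between 12338676 and 14551732 per library, and the estimated reads behind them between 10.6 M and 17.7 M. The total of Taf4 (the current symbol of Taf4a) did not separate the groups, with 613, 534 and 478 normalized counts in the controls and 631, 565 and 574 in Taf4asKO libraries (log2 fold change 0.13, SE 0.12, limma adjusted p 0.524). This total includes reads outside the deleted exons 11 and 12 and so does not check the deletion, and the groups are those of the labels. All 10 MuSC markers were present, with Pax7 between 10363 and 13007 normalized counts in all libraries, and 4 of them, among them Itga7 of the sort, passed the test described below and were lower while 3 were higher. Markers of other cells were also found. The summed counts of 5 glial markers ran from 1178 to 2890 in control and from 3480 to 4266 in Taf4asKO libraries, with 4 of 5 past the threshold and higher. The 5 mural cell markers summed to 9411 to 14781 and 14927 to 17578, with 2 of 5 past the threshold and higher, and the 6 endothelial markers to 879 to 1277 and 1392 to 1700, with 0 of 6 past the threshold in limma or limma-voom and 4 at an unadjusted p under 0.05. Of 12 myeloid markers, 5 were measured, which summed to 441 to 552 and 679 to 936. Csf1r lay between 16 and 34 and Cd14 between 4 and 10 normalized counts. Lyz2 had 94, 357 and 320 in control and 465, 729 and 483 in Taf4asKO libraries. Of these markers 0 of 5 passed in limma or limma-voom, with 1 (Lyz2) at an unadjusted p under 0.05. The 6 fibro-adipogenic markers summed to 49786 to 54012 and 16908 to 23186, with Col3a1 and Dpt lower and a median log2 fold change of 0.65 over the list. The 6 myofibre markers summed to 1243 to 3830 and 2129 to 2695. Control replicate 1 had the lowest glial, mural, endothelial, myeloid and myofibre sums of the 6 libraries. It also had the lowest mean log2 level of the fibro-adipogenic markers (8.18). In the blocked fit described below, 2 endothelial markers (Cdh5 and Kdr), 1 myeloid marker (Lyz2), 4 of 5 mural markers and, of the fibro-adipogenic markers, Dcn, Lum and Pdgfra also passed and were higher. The part of the endothelial and myofibre markers in the results was not tested. In these bulk samples, fewer cells of a type and less RNA per cell cannot be told apart.

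Most members had slightly higher estimates in Taf4asKO MuSCs than in controls, and 10 of them passed the test. Transcripts of the initiation genes Ulk2 and Rb1cc1, the ATG8 genes Map1lc3b and Gabarapl1, the transcription factor gene Mitf, the membrane protein gene Lamp1, and the lumenal protein genes Ctsl and Npc2 rose. The lysosomal hydrolase genes Ctsz and Gaa fell. A gene passed when its Benjamini-Hochberg adjusted p in limma was under 0.05 and the groups differed by 1.3-fold or more. By this rule 10 of 47 members (21.3%) passed, 8 higher (17.0%) and 2 lower (4.26%), where 12.6% of all tested genes passed, 5.93% higher and 6.71% lower. The log2 fold change was above 0 in 37 of 47 members (78.7%) and in 50.4% of all tested genes, and its median was 0.22 against 0.004 for all tested genes. The groups did not overlap for 21 members (44.7%), 17 higher and 4 lower, where this held for 33.0% of all tested genes, 16.6% higher and 16.4% lower. Without control replicate 1, 9 members passed, 7 higher and 2 lower, and the median over the 47 members was 0.17. Of all tested genes 1710 passed in that fit, against 2347 with all libraries. Without Taf4asKO replicate 1, 2 or 3 the counts of members were 3, 2 and 2, where 1249, 980 and 956 of all tested genes passed. With a glial or a mural marker covariate 4 and 1 members passed, where 924 and 708 of all tested genes did. A blocked fit, which added the replicate number of the labels as a term, passed 13 members, 11 higher (23.4%) and 2 lower, where 18.1% of all tested genes passed, 9.09% higher and 8.98% lower. The 3 added genes were Atg13, Sqstm1 and Gla. Limma-voom on estimated reads gave the same call as limma for all 47 members.

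**Figure D1:**
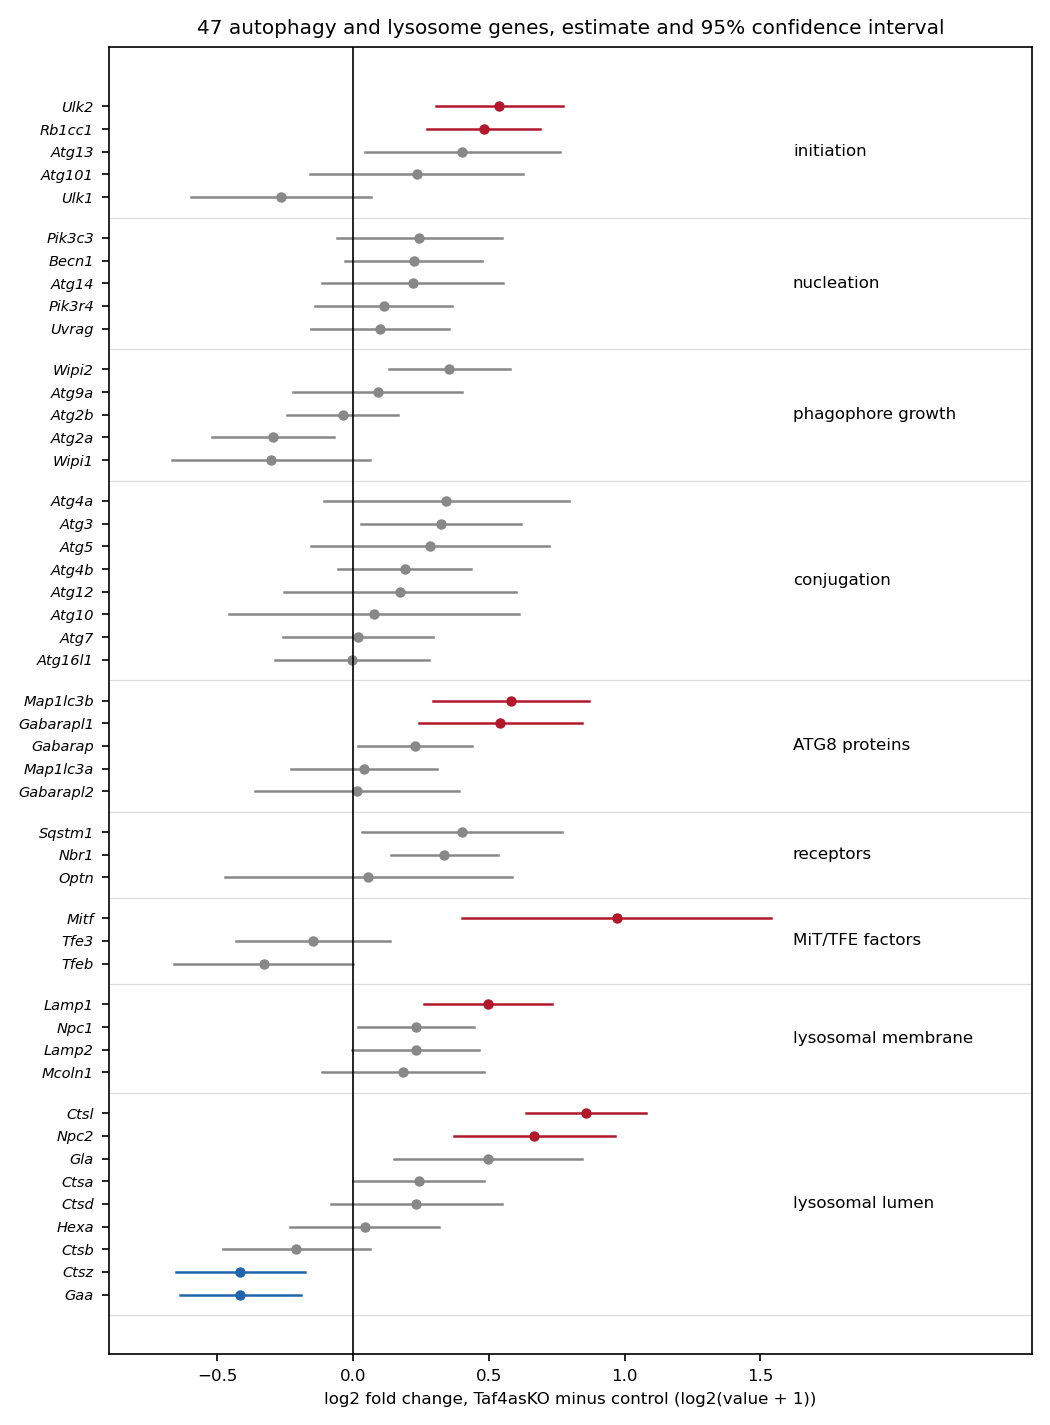
Log2 fold change (Taf4asKO minus control, on the log2(value + 1) scale) of the 47 members, grouped by role, with 95% confidence intervals from limma. Red marks the 8 genes that passed and were higher, blue the 2 that passed and were lower, and grey the others; estimates run from -0.42 for Gaa to 0.97 for Mitf.

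The sizes of these changes were set against the levels of the genes. Per kilobase of exon, the highest member in control was Sqstm1 with 1071 ± 141 normalized counts (SD, n = 3), followed by Ctsz (925.5 ± 73.6), Lamp1 (582.3 ± 62.9), Ctsb (514.2 ± 86.8) and Gabarap (397.1 ± 9.78). The lowest were Atg4a (23.8 ± 2.27), Optn (19.9 ± 4.13) and Mitf (15.6 ± 5.56). In Taf4asKO libraries Sqstm1 was still the highest (1435 ± 357), and Lamp1 (819.2 ± 41.0) stood above Ctsz (694.2 ± 57.6). Summed over their members, the receptor, ATG8, lysosomal membrane and initiation genes had higher counts in every Taf4asKO library than in every control library. The sums of the other roles overlapped. Each sum holds few genes, and 16.6% of all tested genes were by themselves higher without overlap. The receptor sum is mostly Sqstm1. The 3 receptor genes summed to 5041 to 5781 normalized counts in the controls and 6345 to 8437 in Taf4asKO libraries, and the 5 ATG8 genes to 2171 to 2552 and 2929 to 3092. The 9 lumenal genes summed to 8879 to 11097 and 10936 to 11222, which overlapped.

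**Figure D2:**
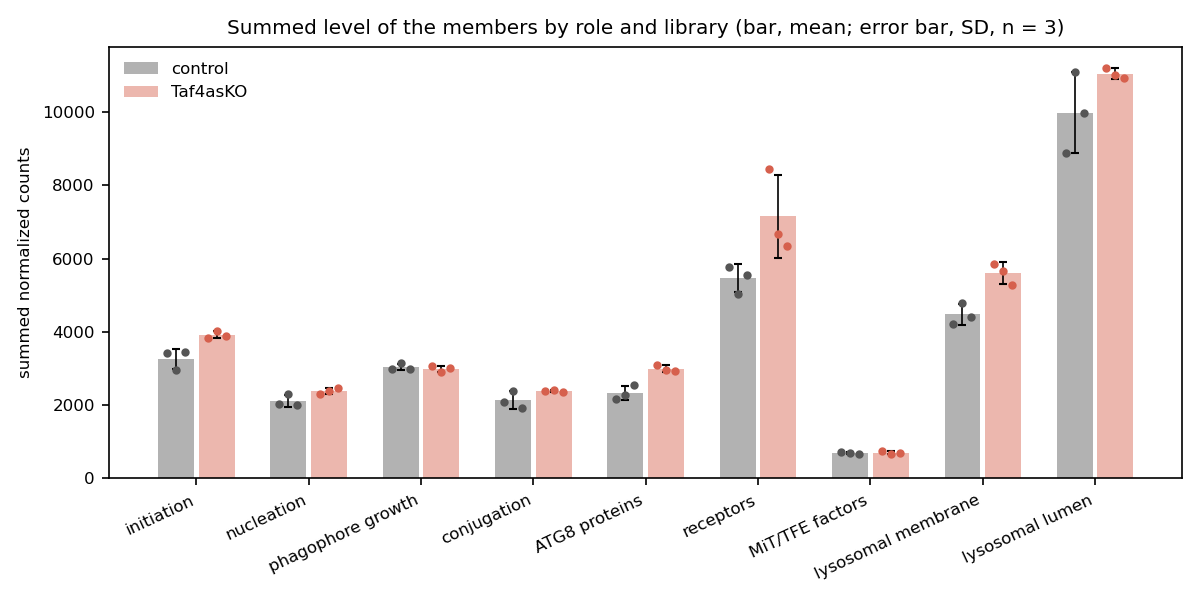
Summed normalized counts of the members of each role in each library (points), with the mean as a bar and the SD as an error bar (n = 3 per group). The sums of receptor genes run from 5041 to 5781 in control and from 6345 to 8437 in Taf4asKO libraries, and those of the MiT/TFE factors overlap.

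The ULK complex responds to nutrient and energy signals. Ulk2 (ENSMUSG00000004798, mm10 chromosome 11, 61775649 to 61855073), which encodes a kinase related to ULK1, had 712, 658 and 685 normalized counts in the controls and 1103, 973 and 917 in Taf4asKO libraries. All Taf4asKO libraries were above all controls, and the log2 fold change was 0.54 (SE 0.11, 95% confidence interval 0.30 to 0.77, limma adjusted p 0.00955). Rb1cc1 (ENSMUSG00000025907, chromosome 1, 6214645 to 6276648), which encodes the scaffold FIP200, had 1108, 1081 and 1067 in control and 1400, 1582 and 1570 in Taf4asKO libraries. It rose, with a log2 fold change of 0.48 (limma adjusted p 0.00941, SE 0.09). Atg13, an adaptor of the same complex, had 225, 264 and 299 in control and 283, 385 and 378 in Taf4asKO libraries. Its groups overlapped and it did not pass (0.40, SE 0.16, limma adjusted p 0.131), but it passed in the blocked fit (adjusted p 0.0392). With a glial or mural marker covariate its value was 0.069 (limma adjusted p 0.900) or 0.12 (0.810). Atg101, which stabilizes ATG13, had a log2 fold change of 0.24 (limma adjusted p 0.415).

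Ulk1, the best known kinase of the pathway, had 1233, 833 and 1233 normalized counts in the controls and 914, 920 and 868 in Taf4asKO libraries. Control replicate 2 lay below every Taf4asKO library and the other controls above them. The log2 fold change was -0.26 (SE 0.15, limma adjusted p 0.273), and without control replicate 2 it was -0.45 with an adjusted p of 0.00942. With the glial marker covariate the estimate was 0.05.

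Of the genes of the lipid kinase complex and of membrane growth, none passed. For the 5 nucleation genes this held in limma and limma-voom, and 0 of 5 had an unadjusted p under 0.05. Becn1, which encodes Beclin 1, had 512, 583 and 466 normalized counts in the controls and 613, 594 and 609 in Taf4asKO libraries. The groups did not overlap, and the log2 fold change was 0.22 (95% confidence interval -0.03 to 0.48, limma adjusted p 0.224), with 0.15 (0.466) without control replicate 3. Pik3c3, which encodes the kinase VPS34, Pik3r4, Atg14 and Uvrag had log2 fold changes between 0.10 and 0.24. Of the 5 genes of membrane growth 0 passed in limma or limma-voom, and 2 had an unadjusted p under 0.05. Wipi2, whose product recruits the conjugation machinery, had 639, 721 and 629 in control and 842, 844 and 854 in Taf4asKO libraries. These groups did not overlap and the adjusted p was 0.0431, but the log2 fold change of 0.36 was under the fold limit (0.379 on this scale), which it passed without control replicate 2 (0.42, adjusted p 0.0136). Atg2a, which encodes a lipid transfer protein, had 827, 728 and 800 in control and 667, 624 and 625 in Taf4asKO libraries, also without overlap (-0.30, limma adjusted p 0.0831). Wipi1 had a log2 fold change of -0.30 (limma adjusted p 0.257), and Atg2b and Atg9a had values of -0.04 and 0.09.

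The conjugation enzymes attach ATG12 to ATG5 and ATG8 proteins to lipid. None of the 8 genes passed in limma or limma-voom, and 1 had an unadjusted p under 0.05. Atg3, the E2-like enzyme of lipid attachment, had 462, 581 and 421 normalized counts in the controls and 615, 578 and 625 in Taf4asKO libraries (0.32, SE 0.13, limma adjusted p 0.137). Control replicate 2 overlapped the Taf4asKO range, and without that library Atg3 passed (0.46, adjusted p 0.0174). Atg7, the E1-like enzyme, and Atg16l1 had log2 fold changes of 0.02 (95% confidence interval -0.26 to 0.29) and -0.004 (-0.29 to 0.28). Atg4a, Atg4b, Atg5, Atg10 and Atg12 lay between 0.08 and 0.34, and only Atg4a and Atg4b of the 8 genes had groups without overlap.

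Among the ATG8 genes, which encode the ubiquitin-like proteins of the autophagosome membrane, Map1lc3b and Gabarapl1 rose. Map1lc3b (ENSMUSG00000031812, chromosome 8, 121590361 to 121598760), which encodes LC3B, had 444, 518 and 609 normalized counts in the controls and 816, 729 and 790 in Taf4asKO libraries. All Taf4asKO libraries were above all controls, with a log2 fold change of 0.58 (SE 0.13, 95% confidence interval 0.29 to 0.87, limma adjusted p 0.0170). Gabarapl1 (ENSMUSG00000030161, chromosome 6, 129533160 to 129542346) had 517, 565 and 736 in control and 853, 913 and 854 in Taf4asKO libraries. Its groups did not overlap and the log2 fold change was 0.54 (limma adjusted p 0.0269), or 0.44 (0.0772) without control replicate 1. Gabarap, the member of this family with the highest level per kilobase, had 731, 751 and 715 in control and 895, 859 and 824 in Taf4asKO libraries, also without overlap, but did not pass (0.23, limma adjusted p 0.140). Map1lc3a (0.04, 95% confidence interval -0.23 to 0.31) and Gabarapl2 (0.01, -0.36 to 0.39) did not pass.

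Cargo receptors bridge ubiquitinated substrates and ATG8 proteins. Of 3 genes 0 passed in limma or limma-voom, and 2 had an unadjusted p under 0.05. Sqstm1 (ENSMUSG00000015837), which encodes p62, had 4011, 3080 and 3695 normalized counts in the controls and 6189, 4272 and 3985 in Taf4asKO libraries. Taf4asKO replicate 1 stood far above the other libraries of its group, and Taf4asKO replicate 3 was within the control range. The log2 fold change was 0.40 (SE 0.17, limma adjusted p 0.140), and it passed in the blocked fit (adjusted p 0.0223). Without Taf4asKO replicate 1 it was 0.21 (limma adjusted p 0.369), and with the glial and mural covariates described below it was 0.80 (0.0565) and 0.66 (0.137). Nbr1, a receptor related to p62, had 1713, 1880 and 1773 in control and 2183, 2324 and 2263 in Taf4asKO libraries. Here the groups did not overlap and the adjusted p was 0.0336, but the log2 fold change of 0.34 was under the fold limit. Optn, the receptor optineurin, had a log2 fold change of 0.06 (limma adjusted p 0.907).

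The 3 MiT/TFE genes had estimates of both signs. Tfeb (ENSMUSG00000023990), the most studied regulator of lysosomal genes, had 225, 194 and 204 normalized counts in the controls and 189, 159 and 149 in Taf4asKO libraries. All Taf4asKO values were below all control values, and the log2 fold change of -0.33 did not pass (95% confidence interval -0.66 to 0.002, limma adjusted p 0.176). Its estimate was below 0 in all 20 alternatives that refitted each gene, scalings included, and was smallest with the glial marker covariate (-0.10, limma adjusted p 0.837). Tfe3 had 432, 367 and 351 in control and 377, 322 and 337 in Taf4asKO libraries (-0.15, limma adjusted p 0.487). Mitf (ENSMUSG00000035158, chromosome 6, 97807052 to 98021349) had 58, 124 and 108 in control and 179, 178 and 187 in Taf4asKO libraries, and rose, with a log2 fold change of 0.97 (limma adjusted p 0.0335, 95% confidence interval 0.40 to 1.54). Without control replicate 1, its lowest library, the value was 0.64 (adjusted p 0.0397). The glial marker Sox10, a transcription factor of neural crest derivatives, had 185, 534 and 420 in control and 734, 1016 and 900 in Taf4asKO libraries, so that control replicate 1 was the lowest library for both genes. With the mean level of the glial markers as a covariate, the log2 fold change of Mitf was 0.19 (SE 0.26, limma adjusted p 0.741). The marker means did not overlap between groups, so the covariate and the genotype can only partly be told apart.

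**Figure D3:**
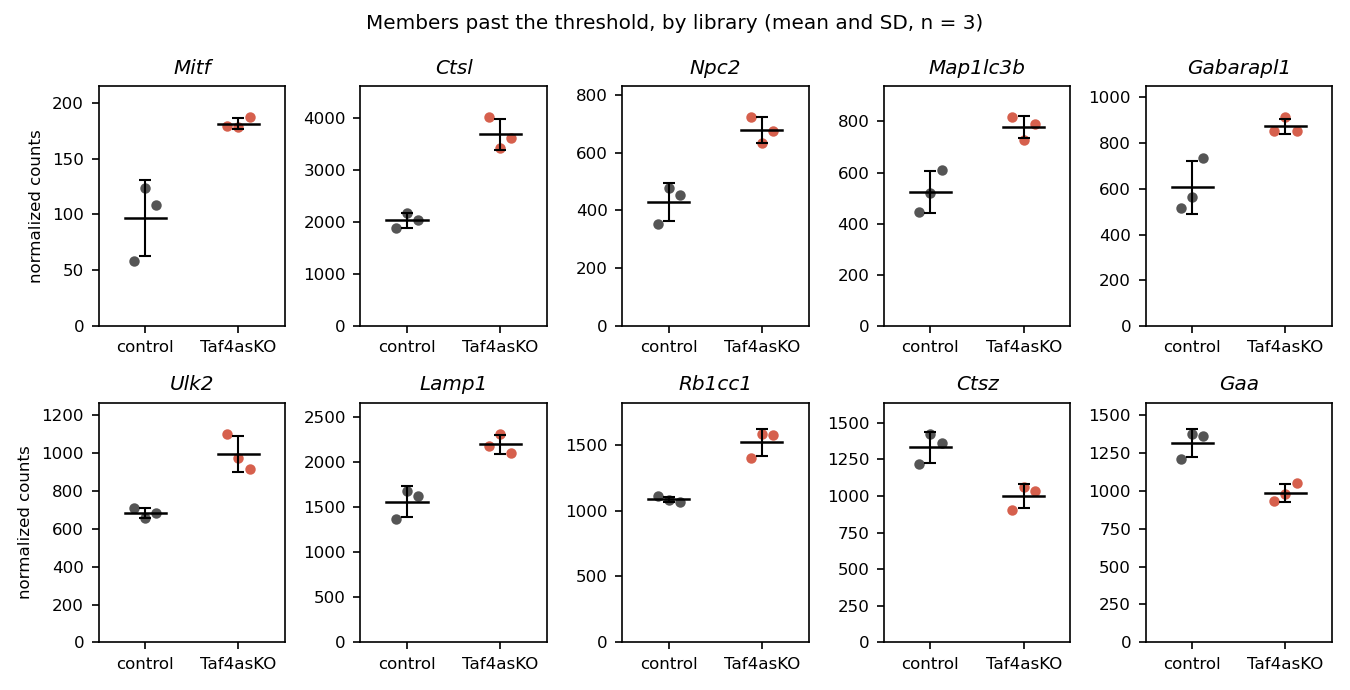
Normalized counts of the 10 members that passed, with each library as a point and the mean and SD as bars (n = 3 per group). In every panel the Taf4asKO and control libraries do not overlap; Ctsl has 1882 to 2161 in control and 3422 to 4005 in Taf4asKO libraries.

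All 4 genes of lysosomal membrane proteins had log2 fold changes above 0, from 0.18 to 0.50. Lamp1 (ENSMUSG00000031447, chromosome 8, 13159161 to 13175338), which encodes an abundant glycoprotein of the lysosomal membrane, had 1366, 1681 and 1626 normalized counts in the controls and 2173, 2309 and 2092 in Taf4asKO libraries. It rose, with a log2 fold change of 0.50 (limma adjusted p 0.0139, 95% confidence interval 0.26 to 0.73). Lamp2, its paralog with a role in chaperone-mediated autophagy, had 1720, 2000 and 1731 in control and 2324, 2114 and 1957 in Taf4asKO libraries, which overlapped (0.23, limma adjusted p 0.178). Npc1, the membrane protein of lysosomal cholesterol export, had a log2 fold change of 0.23 without overlap between groups (limma adjusted p 0.145). Mcoln1, a calcium channel of the lysosome, had a value of 0.18 (limma adjusted p 0.400).

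Transcripts of lumenal proteins moved both ways. Ctsl (ENSMUSG00000021477, chromosome 13, 64359337 to 64370890), which encodes the cysteine protease cathepsin L, had 1882, 2161 and 2037 normalized counts in the controls and 4005, 3422 and 3608 in Taf4asKO libraries. The log2 fold change of 0.86 (SE 0.10, 95% confidence interval 0.64 to 1.08, limma adjusted p 0.000795) was the only one of the 47 that passed in all 20 alternatives. Npc2 (ENSMUSG00000021242, chromosome 12, 84754562 to 84773152), the soluble partner of NPC1, had 354, 479 and 455 in control and 723, 633 and 677 in Taf4asKO libraries (0.67, SE 0.13, limma adjusted p 0.0106). Gla, which encodes alpha-galactosidase A, had 111, 100 and 126 in control and 153, 160 and 162 in Taf4asKO libraries. Its groups did not overlap, and the log2 fold change was 0.50, with a limma adjusted p of 0.0630 in the fit without the block and 0.0497 in the blocked fit. Ctsa and Ctsd, which encode a serine carboxypeptidase and an aspartic protease, had log2 fold changes of 0.24 (limma adjusted p 0.172) and 0.23 (0.310; without control replicate 2, 0.40 and 0.0236), and Hexa, a hexosaminidase gene, of 0.04 (0.859).

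Ctsz and Gaa fell to a similar extent. Ctsz (ENSMUSG00000016256, chromosome 2, 174427493 to 174439039), which encodes the exopeptidase cathepsin Z, had 1217, 1424 and 1360 normalized counts in the controls and 906, 1062 and 1033 in Taf4asKO libraries. The log2 fold change was -0.41 (limma adjusted p 0.0304, SE 0.11). Gaa (ENSMUSG00000025579, chromosome 11, 119267887 to 119285454), which encodes the acid alpha-glucosidase that degrades lysosomal glycogen, had 1206, 1375 and 1360 in control and 929, 976 and 1048 in Taf4asKO libraries (-0.42, SE 0.10, limma adjusted p 0.0238). In both genes all Taf4asKO libraries were below all controls. Without control replicate 3 the values were -0.40 and -0.39 and neither passed (adjusted p 0.0672 and 0.0575), and without control replicate 2 Ctsz was under the fold limit (-0.37). Ctsb, which encodes cathepsin B and had the highest count of the lumenal genes in control, had 2643, 3679 and 3012 in control and 2651, 2773 and 2583 in Taf4asKO libraries. These ranges overlapped and Ctsb did not pass (-0.21, 95% confidence interval -0.48 to 0.06, limma adjusted p 0.290). Without control replicate 1 or 2 Ctsb was at -0.32 (limma adjusted p 0.127) and -0.081 (0.547), and with the glial and mural covariates at -0.52 (0.0726) and -0.45 (0.130).

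The base composition of the transcripts was set beside the calls, of which only 2 were falls. Ctsz and Gaa have GC contents of 57.3% and 59.5% in their longest transcripts, above the median of 50.7% over the 47 members, and the 8 members that rose have a median of 49.2%. Over all tested genes the medians were 47.1% for genes that rose and 52.0% for genes that fell, the same order. Across the 47 genes, which share the 6 libraries and are not independent, the log2 fold change and GC content had a Pearson r of -0.49 and a Spearman rho of -0.39, against -0.13 and -0.16 over 18532 tested genes. After each library was adjusted for GC content and exon length, 6 members passed, all higher, namely Ctsl, Gabarapl1, Lamp1, Map1lc3b, Npc2 and Ulk2. Of all tested genes 2174 passed in this fit, 950 higher and 1224 lower. Ctsz (-0.27, limma adjusted p 0.189) and Gaa (-0.32, 0.0665) no longer passed, Rb1cc1 fell under the fold limit (0.34, 0.0404) and Mitf moved from 0.97 to 0.84 and no longer passed (limma adjusted p 0.0505). With this adjustment in the blocked fit, 9 members passed, all higher, where 3195 of all tested genes passed, 1537 higher and 1658 lower. Gaa had a limma adjusted p of 0.0285 there with the fold under the limit.

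**Figure D4:**
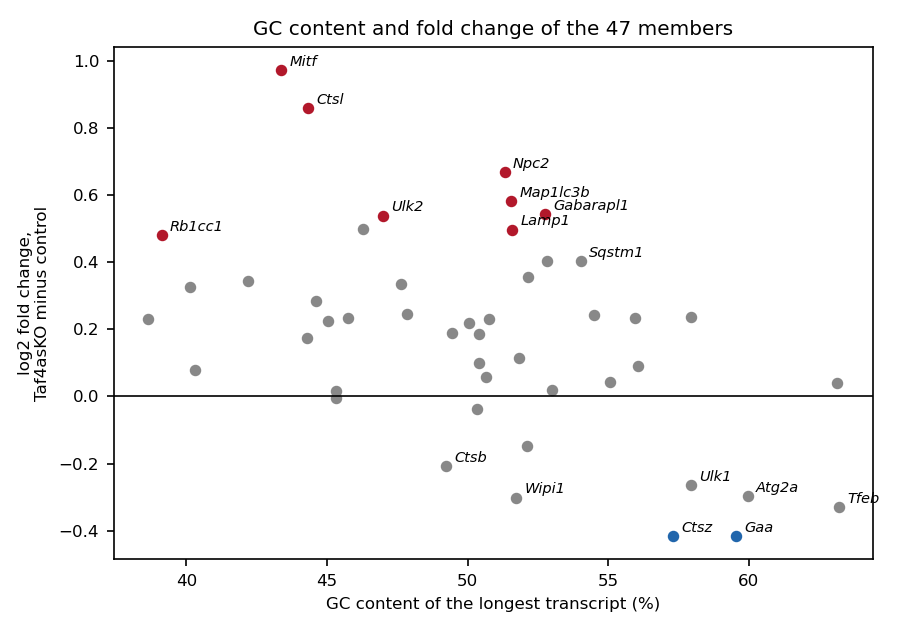
Log2 fold change (y axis) against the GC content of the longest transcript (x axis, percent) for the 47 members, with the 8 higher genes that passed in red and the 2 lower ones in blue. Ctsz and Gaa lie at 57.3% and 59.5%, and Mitf and Ctsl at 43.4% and 44.3%.

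The calls also changed with the libraries and marker covariates used. In the fits without Taf4asKO replicate 1, 2 or 3 Ctsl passed each time (with Rb1cc1 and Ulk2, with Npc2, and with Ulk2), and Tfeb, Becn1 and Ctsb did not pass in any of these fits. With the glial marker covariate 4 members passed, Ctsl, Ulk2, Ctsz and Gaa, and with the mural marker covariate 1, Ctsl. In the glial fit Lamp1 had a log2 fold change of 0.27 (limma adjusted p 0.321), Map1lc3b of 0.40 (0.277) and Npc2 of 0.40 (0.256). In the mural fit these were 0.29 (0.271), 0.38 (0.270) and 0.43 (0.212). In the mural fit Gabarapl1 was at 0.31 (0.384) and Mitf at 0.30 (0.557). Of the 10 members that passed without a covariate, 4 lost the call in the mural fit with estimates at least as large as without the covariate. These were Ulk2 at 0.62 (limma adjusted p 0.0542), Ctsz at -0.58 (0.0510), Gaa at -0.55 (0.0608) and Rb1cc1 at 0.48 (0.0950). In the glial fit Rb1cc1 was at 0.46 (0.108). Both covariates were added after the marker levels were seen. With the myeloid covariate 12 members passed and with the fibro-adipogenic one 10, where 2632 and 2989 of all tested genes passed, against 2347 without a covariate. Of the 47 members 17, and of the 10 that passed 6 (Rb1cc1, Map1lc3b, Gabarapl1, Lamp1, Ctsl and Ctsz), share exon bases with a gene on the opposite strand. The authors left out reads that overlapped several genes, from a stranded library kit. Whether counting used strand is not stated, so how many reads of these overlaps were left out or assigned is uncertain.

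**Figure D5:**
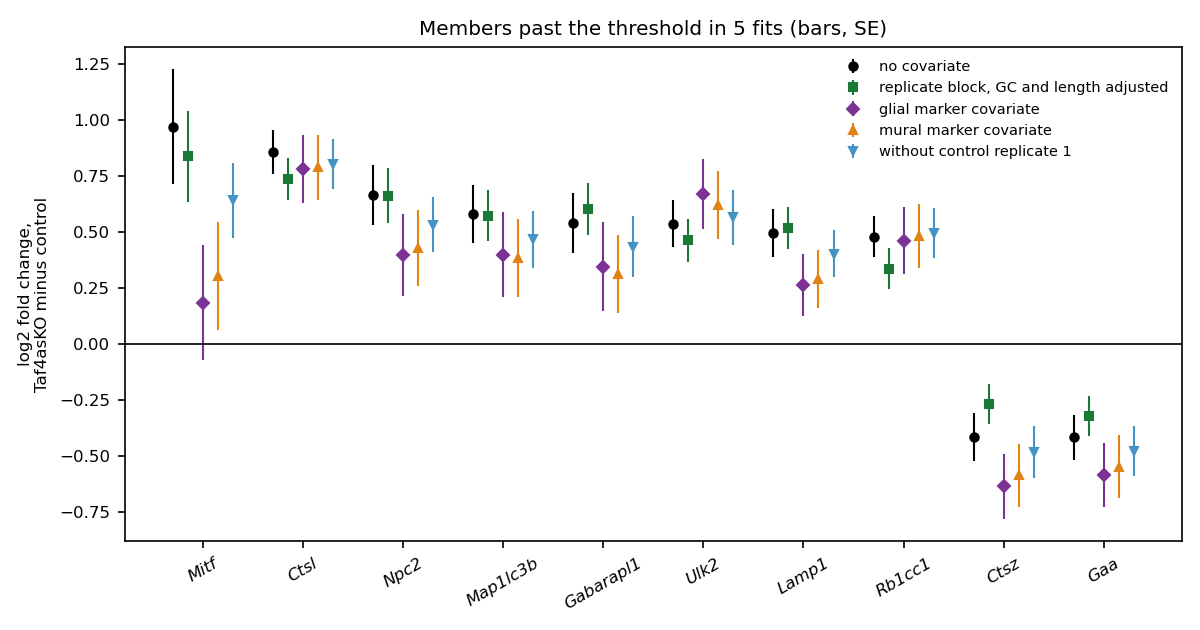
Log2 fold change (y axis, bars SE) of the 10 members that passed in the fit without covariate, in that fit and in 4 others (block with GC and length adjustment, glial covariate, mural covariate, and without control replicate 1). With the glial covariate Mitf is at 0.19 and Ctsl at 0.78, and with the block and the GC and length adjustment Ctsz is at -0.27.

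Windows at RefSeq start sites of the members were searched for letters that the MiT/TFE factors and NF-Y, which the study examined beside TAF4A, are known to bind. RefSeq (GRCm38.p6) gave a window from 250 bases before to 50 bases after the start for 39 of 47 members, and both strands were read. The E-box core CACGTG was present for 11 of 39 members (28.2%) and for 8.09% of 27025 genes with such a window. The longer TCACGTGA, which contains it, was present for 5 of 39 members (12.8%), namely Atg3, Mcoln1, Ctsa, Ctsd and Gla, and for 1.12% of all genes. None of these 5 passed in the test without the block. The NF-Y box CCAAT was present for 14 of 39 members (35.9%) and 41.1% of all genes. Of the 9 members that passed and had a window, 3 held CACGTG, of which Lamp1 and Ctsl rose and Gaa fell. The windows with CACGTG of Ctsl, Ctsa and Atg7 lie wholly inside the genes as the expression table places them, with starts 370, 900 and 27999 bases from the 5′ end, so they need not be the promoters in use. The median log2 fold change was 0.24 for members with CACGTG and 0.15 for those without. A match of letters is a description of the sequence and not a measured binding site.

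The 250 bases before the start are shown for Lamp1, which rose and has the most copies of the core (4), for Gaa, which fell and has 1, and for Mcoln1 and Gla, which hold the longer form. The RefSeq start is that of the expression table for Lamp1 and lies 76, 62 and 120 bases inside the gene for Gaa, Mcoln1 and Gla. They are written 5′ to 3′ on the strand of the gene, with CACGTG or TCACGTGA in capitals. The positions are chr8:13158911-13159160, plus strand for Lamp1, chr11:119267713-119267962, plus strand for Gaa, chr8:3500269-3500518, plus strand for Mcoln1 and chrX:134601006-134601255, minus strand for Gla.
Lamp1: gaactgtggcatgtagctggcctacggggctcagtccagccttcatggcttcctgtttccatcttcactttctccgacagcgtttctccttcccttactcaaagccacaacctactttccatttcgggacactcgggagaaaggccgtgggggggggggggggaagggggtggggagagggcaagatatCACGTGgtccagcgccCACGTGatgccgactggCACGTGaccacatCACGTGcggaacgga
Gaa: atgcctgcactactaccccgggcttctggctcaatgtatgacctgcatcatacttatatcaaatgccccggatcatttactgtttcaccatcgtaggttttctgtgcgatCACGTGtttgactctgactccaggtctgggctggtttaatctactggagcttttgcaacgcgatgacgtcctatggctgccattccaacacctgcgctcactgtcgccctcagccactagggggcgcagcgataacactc
Mcoln1: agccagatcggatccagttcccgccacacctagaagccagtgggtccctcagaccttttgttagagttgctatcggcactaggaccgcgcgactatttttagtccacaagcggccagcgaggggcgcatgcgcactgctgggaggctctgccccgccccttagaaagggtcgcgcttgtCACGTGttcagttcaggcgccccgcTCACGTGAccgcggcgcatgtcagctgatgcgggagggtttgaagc
Gla: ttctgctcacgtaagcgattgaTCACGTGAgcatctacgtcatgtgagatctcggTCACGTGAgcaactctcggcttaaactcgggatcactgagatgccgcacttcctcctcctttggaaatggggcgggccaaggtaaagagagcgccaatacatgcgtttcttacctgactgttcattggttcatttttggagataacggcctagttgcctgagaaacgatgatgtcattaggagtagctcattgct

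Other genes of the pathway, from 7 lists of 118 genes, of which 117 were in the table and 116 were tested, had a median log2 fold change of 0.21, with 18 genes higher and 1 lower past the threshold, where 5.93% and 6.71% of all tested genes were. In the blocked fit 26 were higher and 1 lower, where 9.09% and 8.98% of all tested genes were. Without one library 3 to 36 genes were higher, with the fewest without Taf4asKO replicate 3 (3), 2 (4) or 1 (7) or control replicate 1 (7) and the most without control replicate 2. Of all tested genes 361, 350, 484, 753 and 1607 were higher in these fits, in the same order. With the glial or the mural marker covariate 1 gene was higher, Atp6v1a, where 319 and 223 of all tested genes were. In the glial fit Bnip3l was at 0.28 (limma adjusted p 0.365), Laptm4a at 0.31 (0.294) and Ctsc at 0.53 (0.432). Manba was at 0.46 (0.484) and Tollip at 0.37 (0.308). These 5 were smaller than without the covariate. Gnptg at 0.79 (limma adjusted p 0.0721) and Atp6v0a1 at 0.56 (0.0782) were larger but did not pass. Of 6 fits that each left out a library, Tollip passed in 1, Manba in 2 and Ctsc in 3. Of 17 genes of the V-ATPase, the proton pump that acidifies lysosomes, 3 passed and rose and 0 passed and fell, with 15 estimates above 0. Atp6v0c, a low gene, had 50, 46 and 6 normalized counts in the controls and 3, 12 and 7 in Taf4asKO libraries. It had the lowest estimate of this list and did not pass (-1.78, limma adjusted p 0.147). Atp6v0a1 had 519, 503 and 550 normalized counts in the controls and 773, 717 and 780 in Taf4asKO libraries (0.53, limma adjusted p 0.00826), and Atp6v1a, the catalytic subunit, had 1149, 1081 and 1041 and 1597, 1597 and 1503 (0.52, 0.00563). Of 32 other hydrolases and their cofactors 6 rose and 0 fell, with a median of 0.30. Ctsc, which encodes cathepsin C, rose from 27, 39 and 38 to 57, 78 and 82 (1.04, limma adjusted p 0.0248), and Manba, a beta-mannosidase gene, from 43, 54 and 66 to 86, 123 and 90 (0.87, 0.0369). Of 15 other lysosomal membrane and sorting genes 6 rose and 0 fell, among them Gnptg (0.63, limma adjusted p 0.0189), a subunit of the enzyme that makes the mannose 6-phosphate sorting signal, and Laptm4a (0.54, 0.0134).

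Of 11 other cargo receptor genes 3 rose and 0 fell. Bnip3l, which encodes the mitophagy receptor NIX, had 366, 506 and 445 normalized counts in the controls and 641, 724 and 665 in Taf4asKO libraries (0.63, limma adjusted p 0.0133), and Tollip had 566, 704 and 539 and 896, 848 and 799 (0.50, 0.0257). Of 12 other genes of autophagosome formation 1 fell and 0 rose. This was Atg16l2, a paralog of Atg16l1, with 627, 508 and 511 in control and 428, 347 and 345 in Taf4asKO libraries (-0.55, limma adjusted p 0.0249). It was -0.24 (limma adjusted p 0.486) with the glial and -0.30 (0.384) with the mural covariate, and -0.56 (0.0505) with total-count scaling. It also did not pass without control replicate 1 (-0.46, limma adjusted p 0.0765) or Taf4asKO replicate 2 (-0.51, 0.116) or 3 (-0.50, 0.115). None of 11 fusion genes and none of 18 nutrient-sensing genes passed in limma or limma-voom, while 3 and 4 of them had an unadjusted p under 0.05 and 1 of each list rose in the blocked fit.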

How the data were processed

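Per the study's methods and the submitters' processing notes, the authors trimmed reads (Trimmomatic 0.39), aligned them to mm10 (STAR 2.6.0c), removed multi-mapping reads, counted exonic reads (featureCounts 1.6.0) and normalized with DESeq2 1.14.1. The deposited values are a score, namely whole numbers of reads after division by library size factors. Read numbers were estimated from the spacing of low values.

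Genes with a mean of at least 5 entered a limma fit (version 3.58.1, R 4.3.3, two-sided, intensity trend) on log2(value + 1), which understates changes of low genes. Exon length, overlaps and GC content came from GENCODE M21 (99.8% of identifiers found). Same-numbered libraries, by their titles, deviated together across genes (r 0.235, 0.126 and 0.150), so a blocked fit was added. Alternatives were total-count and upper-quartile scaling, a pseudocount of 0.1, a mean of at least 50, no filter, no fold limit, robust shrinkage, GC and length adjustment (splines, 5 degrees of freedom), fibro-adipogenic and myeloid covariates, and leaving out each library. Limma-voom, the block with GC and length adjustment, and glial and mural covariates were added after the data were seen. The members and lists were chosen with earlier results of these data known. Library values are given for members that passed or whose call changed with the block, for Tfeb, Tfe3, Mitf, Sqstm1, Map1lc3b, Lamp1, Ctsb and Becn1, and for others chosen after their values were seen. Of each other list, the largest fall and the 2 largest rises that passed were named, and Atp6v0c was added for its low estimate. Figures were drawn with matplotlib 3.10.9.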

Additional observations from a re-analysis of the deposited data

How the results depend on the processing

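The number of members past the threshold was 10, with 8 higher and 2 lower. It was 6 (0 lower) with GC and length adjustment, 4 (2 higher) with the glial covariate and 1 (0 lower, 1 higher) with the mural covariate. In the blocked fit 13 passed, and with the replicate block and GC and length adjustment together 9 passed and 0 were lower. When single libraries were left out it ranged from 2 to 13, with 0 to 2 lower and 2 to 11 higher. The lowest counts came without a Taf4asKO library, and the 13 without control replicate 2. Where 0 members were lower in limma, 2 to 4 lower members had an unadjusted p under 0.05. Limma-voom was run only on all 6 libraries without adjustment, where it called 2. Ctsz and Gaa stayed below 0 in all 20 alternatives. For all genes the number was 2347 (1246 lower, 1101 higher). It was 2174 (1224 and 950) with GC and length adjustment and 3195 (1658 and 1537) with the block and this adjustment together. It was 924 (605 and 319) with the glial and 708 (485 and 223) with the mural covariate, and 1688 genes were higher in the fit with the replicate block. Without one library it ranged from 956 to 3096, with 595 to 1489 lower and 350 to 1607 higher. The cause was not tested. Both scalings, the pseudocount, the filters, no fold limit, robust shrinkage, limma-voom and the fibro-adipogenic and myeloid covariates gave 10 to 12 members. In these fits 2157 to 2989 of all genes passed.

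Of 940 values of single members under 20 alternatives, 836 kept direction and call, 49 lost the call, 12 gained it and 43 changed sign, none of them of a member that passed. Among members, the replicate block changed the calls of Atg13, Sqstm1 and Gla and no other. Signs changed with the glial covariate for Atg12 (-0.33), Atg14 (-0.0079), Atg16l1 (0.17), Atg2b (0.021), Atg7 (-0.014), Atg9a (-0.023), Ctsd (-0.12), Hexa (-0.15), Optn (-0.41), Pik3c3 (-0.099), Pik3r4 (-0.038), Tfe3 (0.10) and Ulk1 (0.051). They changed with the mural covariate for Atg12 (-0.18), Atg16l1 (0.18), Atg2b (0.012), Ctsd (-0.038), Hexa (-0.11), Optn (-0.31), Pik3c3 (-0.0033) and Tfe3 (0.071). Atg10 was -0.0061 and Gabarapl2 -0.054 after GC and length adjustment, whether or not the block was used. Under upper-quartile scaling, which moved the median of all genes to -0.034, Atg7 was -0.020 and Gabarapl2 -0.023. Gabarapl2 was -0.011 with the myeloid and Atg16l1 0.0035 with the fibro-adipogenic covariate. In the fits without one library Atg10 ranged from -0.079 to 0.25, Atg16l1 from -0.10 to 0.097, Atg7 from -0.054 to 0.083, Gabarapl2 from -0.073 to 0.095, Hexa from -0.030 to 0.13, Map1lc3a from -0.027 to 0.098 and Optn from -0.12 to 0.17.

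The 3 libraries per group limit the precision. The standard error of the log2 fold change ran from 0.09 for Nbr1 to 0.26 for Mitf, and the lowest members (Mitf, Optn, Atg4a and Atg10) had the widest intervals. A member that did not pass was not shown to be equal in both groups. Leaving out a library leaves 2 in its group.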
